A study of Mus musculus with 36 samples.

Results

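The genes described here encode 10 secreted proteins of the extracellular matrix: Sparc, Bgn, Fn1, Postn, Tnc, Thbs1, Ctgf, Cyr61, Timp3 and Serpine2. They were taken as a named list, out of 31102 genes in the single-cell tables and 46407 in the bulk count files, and were followed per gland and per cell class. The list was drawn up when genotype results of the Drop-seq glands were already known. Values from those glands, split by genotype, stage or cell class, are therefore given as a description, while comparisons by sex, and by genotype in separately processed CITE-seq glands, were tested.

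The samples were submandibular salivary glands of C57BL/6 mice. Double-mutant glands carried a β-catenin gain-of-function (GOF) and a Bmpr1a loss-of-function (LOF) allele, both switched by K14-Cre, a recombinase driven by the keratin 14 promoter of basal epithelial cells, and these glands develop squamous cell carcinoma. Control mice carried K14-Cre without the mutant alleles, and a Cre-inducible R26-EYFP reporter was present in both genotypes. Live cells were sorted and fixed in methanol for Drop-seq, a droplet method that reads mRNA 3′ ends with unique molecular identifiers (UMIs), from 6 control and 7 double-mutant glands at postnatal day (P) 40 and from 6 and 7 glands at P90. A further 2 control and 2 double-mutant glands at P70 were processed fresh for CITE-seq, of which the mRNA part was used, and bulk RNA-seq of undissociated tissue came from a single female of each genotype, aged P70 for the control and P100 for the double mutant.

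Matricellular proteins are secreted into the matrix but act mainly as adapters: they bind collagens, growth factors, proteases and cell surface receptors such as integrins, and so tune adhesion, migration and growth factor release. Sparc, thrombospondin 1, tenascin C, periostin and the CCN proteins Ctgf and Cyr61 are classic members, and they are typically low in resting adult tissue and high in development, wounds and tumor stroma. Fibronectin and the small proteoglycan biglycan are matrix components to which such adapters attach, and Timp3 and Serpine2 are inhibitors that restrain matrix-degrading proteases. Transcription of several of these genes is known to respond to TGF-β through SMAD factors, to YAP and TAZ through TEAD factors, and to AP-1.

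Promoter windows, 250 bases before to 50 bases after a transcription start (RefSeq, build GRCm38.p6), were at hand for 7 of the 10 genes in 9 windows, and none was at hand for Ctgf, Thbs1 and Fn1. Both strands were searched for GGAATG (TEAD), TGANTCA (AP-1), CAGACA (SMAD) and CTTTGA (TCF/LEF, the factors through which β-catenin acts). The 3 windows shown are those of Cyr61, a known YAP target, and of Sparc and Bgn, the 2 genes with the highest levels in fibroblast-like cells. Capitals mark the letters found, on either strand, and each window is printed 5′ to 3′ on the strand of its gene.
Cyr61, chr3:145649936-145650235, minus strand: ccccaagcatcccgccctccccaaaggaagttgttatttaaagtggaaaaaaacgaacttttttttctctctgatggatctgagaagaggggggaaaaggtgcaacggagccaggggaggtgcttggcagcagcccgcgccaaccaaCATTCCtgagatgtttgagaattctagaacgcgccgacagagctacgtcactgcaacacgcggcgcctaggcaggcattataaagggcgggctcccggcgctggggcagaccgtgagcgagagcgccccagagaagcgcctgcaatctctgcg
Sparc, chr11:55420031-55420330, minus strand: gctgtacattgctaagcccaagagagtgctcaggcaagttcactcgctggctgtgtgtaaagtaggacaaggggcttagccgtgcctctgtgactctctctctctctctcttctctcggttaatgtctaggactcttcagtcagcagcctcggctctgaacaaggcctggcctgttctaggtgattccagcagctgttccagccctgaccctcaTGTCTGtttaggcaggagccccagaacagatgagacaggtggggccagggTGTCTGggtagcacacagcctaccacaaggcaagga
Bgn, chrX:73483351-73483650, plus strand: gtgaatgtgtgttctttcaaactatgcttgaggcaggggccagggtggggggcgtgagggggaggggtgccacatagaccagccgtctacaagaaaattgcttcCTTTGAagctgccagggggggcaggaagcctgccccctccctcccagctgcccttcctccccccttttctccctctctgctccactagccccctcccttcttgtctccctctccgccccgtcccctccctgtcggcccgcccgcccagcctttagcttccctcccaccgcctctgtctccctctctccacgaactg
The Cyr61 window held 1 TEAD match, at -103 relative to the start. The Sparc window held 2 SMAD matches, at -36 and 14, and the Bgn window 1 TCF/LEF match at -146. Among 32851 RefSeq windows of this length, 14.7% held the TEAD letters, 21% the SMAD letters, 16% the TCF/LEF letters and 7.81% the AP-1 letters, so single matches of this kind are common. The Tnc windows held SMAD matches, and the windows of Postn, Timp3 and Serpine2 held none of the 4.

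Depth and composition bear on every value below. After the limits on genes and mitochondrial UMIs, 23346 of 26987 Drop-seq barcodes were kept, 606 to 1209 per gland, and 1400 control and 1135 double-mutant CITE-seq cells. A Drop-seq gland held 777537 to 7013325 UMIs, and the median UMIs per cell was 2892 in control P40 glands, 1341 in control P90, 1570 in double-mutant P40 and 766.5 in double-mutant P90 glands. Of 25861 distinct barcodes, 20 occurred in 2 libraries. Double-mutant P40 replicate 1, labeled male, held Xist and almost no Y-linked UMIs, and double-mutant P90 replicate 5, labeled female, held the reverse, so results are given with and without this pair. Both CITE-seq control libraries, labeled male and female, held cells with Xist UMIs (106 and 111) and, for the most part separate, cells with Y-linked UMIs (45 and 58), which goes against one animal of one sex per library. The double-mutant ones, labeled female, held 142 and 122 cells with Xist UMIs and 9 and 12 with Y-linked UMIs. The CITE-seq comparison is also given without each library in turn, which cannot remove a mixture present in all 4. Its p-values measure the spread between libraries, which may be technical. Reads of the targeted genes at the 3′ end do not check the deleted or stabilized exons: Ctnnb1 was 54.5 ± 31.8 counts per 1000000 UMIs (CPM) in 12 control and 112 ± 66.4 CPM (SD) in 14 double-mutant glands, Bmpr1a 17.2 ± 6.07 and 24.3 ± 11.3 CPM, and Cre was found in both genotypes.

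Cell classes were taken from clusters named by markers, with these 10 genes held out of the clustering. Fibroblast-like cells, carrying all 9 of their markers from Dcn and Lum to Col1a1, were 0.583 ± 0.368% of a control gland (n = 12) and 2.69 ± 1.39% of a double-mutant gland (n = 14). Myeloid-like cells, with 11 of 11 markers, were 5.48 ± 4.34% and 16.1 ± 8.94%, and endothelial-like cells, with 9 of 10, were 2.65 ± 2.49% and 5.71 ± 3.28%. Basal-like cells were divided into a sub-cluster led by Wif1, a secreted Wnt antagonist, and other basal-like cells, a mixed set: 1 sub-cluster of 109 cells was led by kallikrein and Dcpp genes of luminal cells, 1 of 415 cells had acinar and luminal but no basal markers among its own, and 1 of 129 cells had 5 luminal beside 3 basal markers. The Wif1-high sub-cluster held 387 double-mutant cells and 1 control cell. Myoepithelial-like cells, marked by Acta2, Cnn1 and Myh11, were 0.716 ± 0.734% and 0.784 ± 0.796%. Since a gland is summed over all its cells, a higher CPM can come from more cells of a type or from more RNA per cell, and in whole-gland values and in bulk these cannot be told apart.

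Sparc (mm10, chr11:55394500-55420080, minus strand), a collagen-binding glycoprotein, was the most abundant of the group per unit of transcript length in bulk. Its level in 12 control Drop-seq glands ran from 5.95 CPM through a median of 28 to 188 CPM, and in 14 double-mutant glands from 12.6 through 182 to 605 CPM. The ranges overlapped, with 7 of 14 double-mutant glands above every control gland, and the means stood 4.09 to 1. Bgn (chrX:73483602-73495933, plus strand), the small leucine-rich proteoglycan biglycan, ran from 1.15 through 2.95 to 14.4 CPM in control glands and from 8.40 through 34.4 to 127 CPM in double-mutant glands, so that 11 of 14 lay above every control gland. Fn1 (chr1:71585520-71653200, minus strand), the adhesive glycoprotein fibronectin, had the widest separation of the 10: 0.143, 0.811 and 4.30 CPM were its lowest, median and highest control values against 1.84, 18.98 and 272 CPM in double-mutant glands. It was above every control gland in 12 of 14. At P90 the Fn1 values did not overlap, at 0.391 to 1.90 CPM in 6 control glands and 6.82 to 272 CPM in 7 double-mutant glands, which 0.868% of 17053 genes showed in that direction. The Fn1 ratio of means was 35.1, and 20.9 without double-mutant P90 replicate 5, which alone held the highest value.

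Postn (chr3:54361109-54391037, plus strand), or periostin, which helps assemble and cross-link collagen, was at 0 UMIs in 2 control glands. It had a median of 1.93 and a highest value of 14.4 CPM there, against 0.509, 18.4 and 100 CPM as the lowest, median and highest in double-mutant glands. Tnc (chr4:63959785-64047015, minus strand), or tenascin C, a large multi-armed glycoprotein that weakens cell attachment to fibronectin, was also at 0 in 2 control glands, with a median of 0.926 and a highest value of 8.17 CPM; double-mutant glands ran from 0.461 through 8.74 to 26.7 CPM. Thbs1 (chr2:118111876-118127133, plus strand), or thrombospondin 1, which binds the receptors CD36 and CD47 and can release TGF-β from its latent form, ran from 8.17 through 21.6 to 54.1 CPM in control glands and from 11.7 through 88 to 283 CPM in double-mutant glands. All 3 overlapped between the genotypes, with 8, 7 and 8 of 14 double-mutant glands above every control gland.

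The CCN pair did not move alike. Ctgf (also Ccn2; chr10:24595442-24598683, plus strand), a heparin- and integrin-binding adapter, ran from 0.209 through 5.54 to 32.4 CPM in control glands and from 1.53 through 41.9 to 257 CPM in double-mutant glands, and 8 of 14 were above every control gland. Cyr61 (also Ccn1; chr3:145646976-145649981, minus strand), an immediate-early gene and close relative of Ctgf, ran from 77.2 through 199.9 to 285 CPM in control glands and from 73.3 through 193 to 380 CPM in double-mutant glands. Only 2 of 14 double-mutant glands exceeded the control range for Cyr61. Within control glands Cyr61 was 77.2 to 177 CPM in 6 P40 glands and 223 to 285 CPM in 6 P90 glands. The share of all genes that lie apart between these groups was not counted, so nothing is read from the gap. Median UMIs per cell differed too, at 2892 in control P40 and 1341 in control P90 glands. Control glands of the 2 stages were processed in different batches, so stage and batch cannot be told apart there.

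Of the inhibitors, Timp3 (chr10:86300372-86349506, plus strand), which stays bound to the matrix and blocks metalloproteinases, ran from 19.3 through 83.9 to 271 CPM in control glands and from 19.1 through 174 to 764 CPM in double-mutant glands. Only 4 of 14 lay above every control gland. Serpine2 (chr1:79794197-79861180, minus strand), also called protease nexin 1, an inhibitor of thrombin and urokinase, was at 0 in 1 control gland, with a median of 1.48 and a highest value of 7.74 CPM, and ran from 1.27 through 13.5 to 57.8 CPM in double-mutant glands, 9 of which were above every control gland. In each of the 5 batches that held both genotypes, the mean of the double-mutant glands was the higher for Sparc, Bgn, Fn1, Tnc, Thbs1, Ctgf and Serpine2. Postn and Timp3 were higher in 4 of the 5 batches and Cyr61 in 3.

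**Figure D1:**
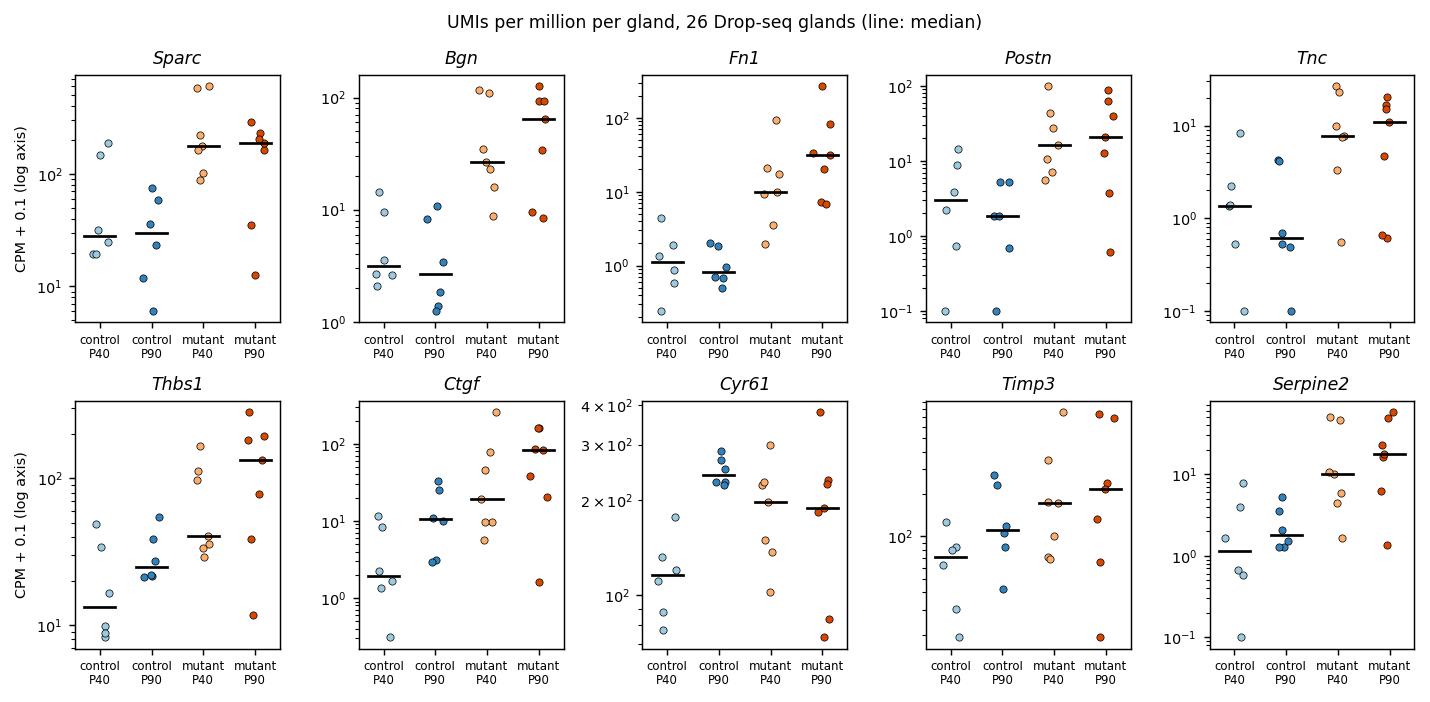
UMI counts per 1000000 (CPM plus 0.1, log axis) of the 10 genes in each of the 26 Drop-seq glands, grouped by genotype and stage on the horizontal axis, where each point is a gland and the line is the group median. Fn1 at P90 is the panel in which double-mutant (6.82 to 272 CPM) and control glands (0.391 to 1.90 CPM) are fully apart, while the Cyr61 panels overlap.

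Fitted across all genes with sex and stage as covariates (edgeR quasi-likelihood test with Benjamini-Hochberg adjustment), 2308 of 10488 genes, 22%, were called between genotypes, 14.4% higher and 7.56% lower. Of the 10 genes, 8 were called higher and Cyr61 lower, the Cyr61 call being lost with batch as a term (-0.55, edgeR adjusted p = 0.0798) and with no filter on low counts (-0.55, edgeR adjusted p = 0.0664). These calls describe the contrast from which the genes were listed and support nothing further. The log2 fold changes were 3.90 (SE 0.59) for Fn1, 2.64 (SE 0.41) for Bgn, 2.29 (SE 0.48) for Serpine2, 2.28 (SE 0.52) for Ctgf, 2.07 (SE 0.56) for Postn, 1.79 (SE 0.52) for Tnc, 1.41 (SE 0.36) for Sparc and 1.19 (SE 0.28) for Thbs1. Timp3, at 0.67 (SE 0.45), was not called, and Cyr61 stood at -0.51 (SE 0.17). The 2 weakest depended on the scaling: with library totals in place of TMM factors the median of all genes moved from 0.02 to 0.68, Cyr61 turned to 0.20 (SE 0.24, not called) and Timp3 reached 1.53 and was called. That setting called 53.2% of all genes. The share was 9.98% with no filter on low counts, 26.5% by DESeq2, 29.5% with replicate numbers as a block, 18.1% with batch as a term, 14.8% without the pair of glands against their sex labels and 19.8% without double-mutant P90 replicate 4, which is high in ribosomal genes, and 8 or 9 of the 10 were called in each of these.

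By stage, 155 of 11420 genes (1.36%) were called at P40, 1.29% higher and 0.0701% lower, with Bgn at 2.28 and Fn1 at 2.997 among them. At P90 922 genes (8.07%) were called, 5.44% higher and 2.64% lower, with Fn1 at 4.99, Bgn at 3.04, Serpine2 at 2.47, Thbs1 at 1.32 and Cyr61 at -1.01. Without the pair of glands that go against their sex labels, 368 genes were called at P90, and of the 5 only Fn1, Bgn and Cyr61 remained. Between P40 and P90 in double-mutant glands none of the 10 was called by edgeR and 0 by DESeq2, in a contrast where edgeR called 0 of 11420 genes (0%). At an unadjusted p under 0.05 were 1 of the 10 (Fn1) and 1122 of all genes. In control glands, where stage and batch coincide, 575 genes (5.04%) were called, 4.48% higher and 0.552% lower at P90, and Cyr61 was the single member, at 0.70 (SE 0.21); with no filter on low counts, and with replicate numbers as a block, Cyr61 was not called. For the genotype-by-stage term edgeR called 1 gene (0.00876%) and none of the 10, and DESeq2 0 of 10. At an unadjusted p under 0.05 were 1 of 10 (Cyr61) and 628 of all genes.

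The genotype difference was tested in the CITE-seq glands, which were not used to list the genes. Both double-mutant libraries were labeled female and the controls 1 male (replicate 1) and 1 female, and the fit had genotype alone. Of 9 genes that could be tested, 6 rose in double-mutant glands: Sparc, Bgn, Fn1, Postn, Thbs1 and Serpine2. Over all genes tested 1379 of 10058 (13.7%) were called, 9.24% higher and 4.47% lower in double-mutant glands. Sparc was 125 and 139.5 CPM in the control libraries and 718 and 719.8 CPM in the double-mutant ones (log2 fold change 1.73, SE 0.26, adjusted p = 0.00855 by edgeR's quasi-likelihood test). Postn was 2.27 and 3.43 against 29.8 and 37.2 CPM (2.87, SE 0.44, edgeR adjusted p = 0.00936). Sparc and Postn were thus higher in 2 of 2 double-mutant libraries than in either control. Postn passed the filter on low counts through its double-mutant libraries alone, so its call carries no weight and its values are a description.

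Fn1 measured 7.25 and 16.0 CPM in control and 84.4 and 139 CPM in double-mutant CITE-seq libraries (2.55, SE 0.41, edgeR adjusted p = 0.0115). Bgn measured 20.6 and 31.3 against 127 and 188 CPM (1.85, SE 0.32, edgeR adjusted p = 0.0143). Thbs1 measured 7.44 and 10.9 against 44.5 and 53.7 CPM (1.67, SE 0.34, edgeR adjusted p = 0.0217). The lowest of the 6 in UMIs was Serpine2, at 4.58 and 5.89 against 22.4 and 34.5 CPM (1.75, SE 0.43, edgeR adjusted p = 0.0353). Serpine2, like Postn, passed the filter on low counts through its double-mutant libraries alone, so its call carries no weight. DESeq2 called 4 of the 6, beside 6.4% of all genes, leaving Thbs1 at an adjusted p of 0.0648 and Serpine2 at 0.143. With each library left out in turn, a single library remained in 1 genotype, and fewer of the 6 were called each time. The median log2 fold change of the listed genes tested was 1.73 with all 4 libraries. It was 1.69 and 1.64 without double-mutant replicates 1 and 2. Without control replicates 1 (labeled male) and 2 it was 1.45 and 1.95.

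The other genes did not pass the CITE-seq test. Ctgf was 5.72 and 11.8 CPM in control and 19.97 and 22.4 CPM in double-mutant libraries (log2 fold change 0.52, SE 0.44, edgeR adjusted p = 0.449). Cyr61 was 66.6 and 94.4 against 98.0 and 149 CPM, and Timp3 40.8 and 61.2 against 62.6 and 77.6 CPM. On the TMM scale these came to -0.11 (SE 0.29, edgeR adjusted p = 0.822) and -0.26 (SE 0.29, edgeR adjusted p = 0.578), while library totals, which moved the median of all genes by 0.73, turned both positive, to 0.64 and 0.48, neither called. Tnc was at 0 and 3.17 CPM in control and 3.63 and 14.9 CPM in double-mutant libraries and fell under the low-count filter. None of the 10 overlapped between the genotypes in CPM, which was true of 57.5% of 14501 genes in the same direction.

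The cell make-up of the CITE-seq libraries moved with genotype as well. Fibroblast-like cells were 3.42 and 3.57% of the control libraries and 8.62 and 9.46% of the double-mutant ones, myeloid-like cells 11.8 and 15.3% against 34.0 and 37.4%, and the summed level of 9 fibroblast markers 639 and 697 CPM against 3381 and 3888 CPM. With fibroblast-like cells left out, an alternative chosen after the data were seen, 5 of the genes could be tested. Of them 2 were called, beside 12.2% of 9395 genes. These were Fn1 at 3.44 (edgeR adjusted p = 0.014) and Thbs1 at 1.55 (edgeR adjusted p = 0.028), while Sparc stood at 0.81 (edgeR adjusted p = 0.138). Fn1 then passed the filter on low counts through its double-mutant libraries alone, so its call there carries no weight. In the Drop-seq glands the same step left 8 of 10 called, beside 20% of 10389 genes, and Sparc at 0.99 (edgeR adjusted p = 0.098).

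**Figure D2:**
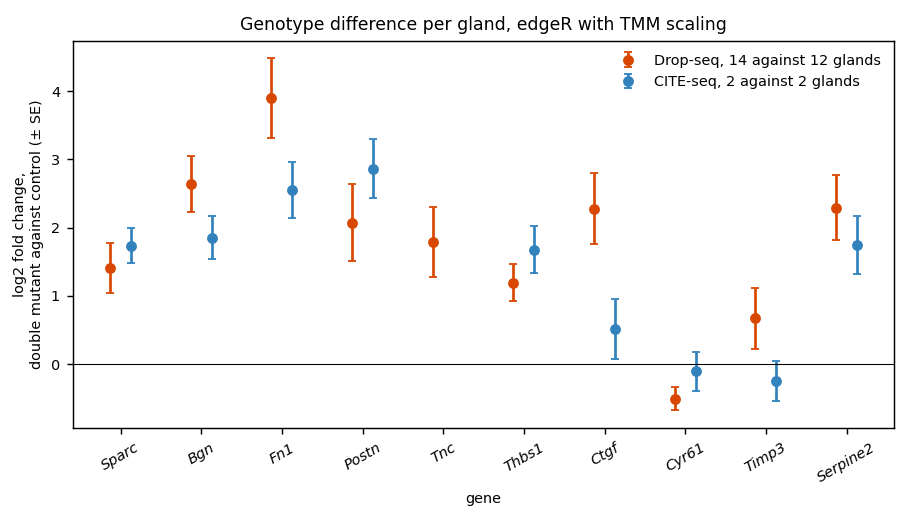
Log2 fold change of double-mutant against control glands (vertical axis, bars ± SE) for each gene, from the fits to 26 Drop-seq glands and to 4 CITE-seq glands, with no CITE-seq value for Tnc. Sparc, Bgn, Fn1, Postn, Thbs1 and Serpine2 lie well above 0 in both, Ctgf is 2.28 in Drop-seq and 0.52 in CITE-seq, and Cyr61 lies below 0 on this scale.

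Cell classes divided the genes into groups with different homes. The levels in this paragraph are means over Drop-seq glands with at least 10 cells of the class, and neighbors in an order are said to differ only where their means lie further apart than either SD. Bgn was the gene most tied to fibroblast-like cells: 2184 ± 1054 CPM (SD, n = 14 glands) against 315 ± 135 CPM in the next class, the Wif1-high basal sub-cluster (n = 9), a gap beyond both SDs. Sparc was also highest in fibroblast-like cells, at 5501 ± 2769 CPM, but was followed by myoepithelial-like cells at 2955 ± 802 CPM (n = 8) and endothelial-like cells at 1930 ± 1145 CPM (n = 22), and none of these neighbors differed beyond their SDs. Fn1 was 686 ± 808 CPM in fibroblast-like cells and 106 ± 159 CPM in myeloid-like cells (n = 24), and Serpine2 was 462 ± 342 CPM in fibroblast-like and 300.2 ± 219 CPM in pericyte-like cells (n = 7).

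The other genes had their highest mean in myoepithelial-like or basal-like cells. Postn was 801 ± 476 CPM in myoepithelial-like cells, 636 ± 237 CPM in Wif1-high basal cells and 390 ± 219 CPM in fibroblast-like cells. The last pair differed beyond their SDs, but the Wif1-high glands were all double-mutant and the fibroblast-like ones of both genotypes. In 12 double-mutant glands alone fibroblast-like Postn was 413 ± 227 CPM, a gap within the SD of the Wif1-high value. Ctgf followed the same classes, at 1249 ± 585 CPM in Wif1-high, 997 ± 740 CPM in myoepithelial-like and 701 ± 487 CPM in fibroblast-like cells, and dropped beyond both SDs to 173 ± 195 CPM in other basal-like cells. The last set held 9 control glands of 21, the fibroblast-like set 2 of 14. In 10 double-mutant glands with at least 5 cells of both basal kinds, other basal-like Ctgf was 324 ± 189 CPM, a gap within the fibroblast-like SD. Cyr61 was 1755 ± 587 CPM in myoepithelial-like, 1514 ± 415 CPM in Wif1-high and 1067 ± 558 CPM in other basal-like cells, with no gap beyond the SDs. Timp3 was 5221 ± 2709 CPM in Wif1-high cells, all glands of which were double-mutant, and 2098 ± 1826 CPM in myoepithelial-like cells of both genotypes; in the 4 double-mutant glands alone the latter was 3649 ± 1159 CPM, a gap within the SD of the Wif1-high value. Tnc was 200 ± 207 CPM in Wif1-high and 166 ± 187 CPM in other basal-like cells, and Thbs1 was 683 ± 398 CPM in myoepithelial-like cells with 4 further classes between 308 and 365 CPM.

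**Figure D3:**
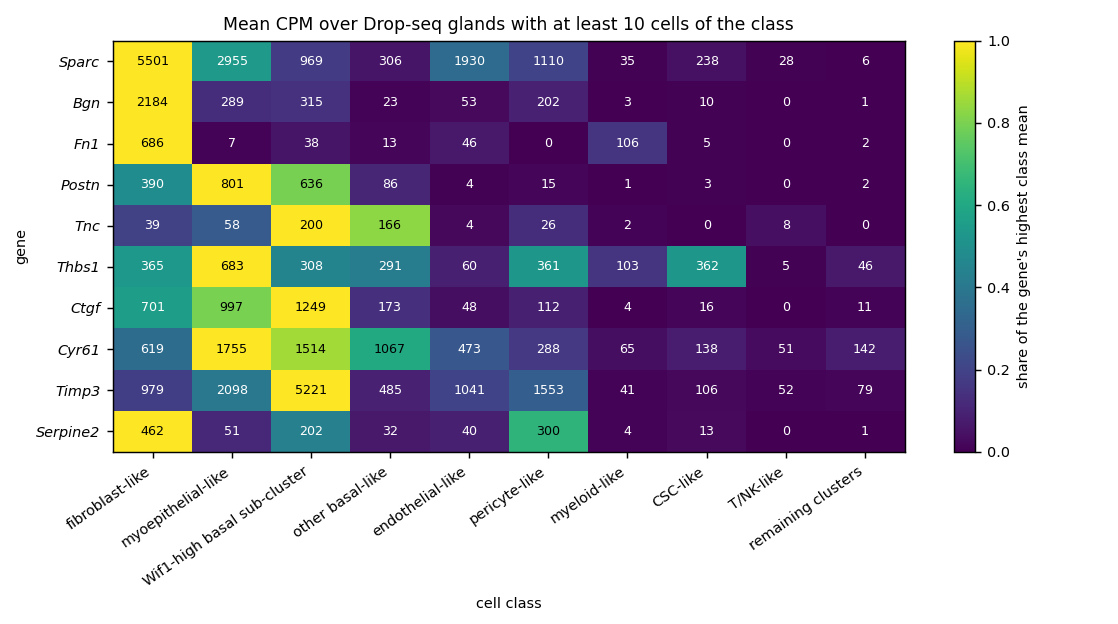
Mean CPM of each gene (rows) in each cell class (columns), printed in the cells and colored by the share of the gene's highest class mean, over Drop-seq glands with at least 10 cells of the class. Bgn peaks in fibroblast-like cells (2184 CPM) and Timp3 in the Wif1-high basal sub-cluster (5221 CPM), while Cyr61 and Ctgf spread over myoepithelial-like, Wif1-high and fibroblast-like cells.

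The classes that supplied the UMIs shifted with genotype. Of Bgn UMIs, 68.7% of 182 in control and 76.3% of 1052 in double-mutant glands came from fibroblast-like cells, which were 0.577% and 2.74% of the cells. Fn1 changed hands: fibroblast-like cells held 58.5% of its 41 control UMIs and 34.7% of its 672 double-mutant UMIs, and myeloid-like cells 4.88% and 49.7%. Postn UMIs came to 50.7% from myoepithelial-like cells in control glands (of 140), and in double-mutant glands (of 563) to 18.8% from those cells and 38.0% from Wif1-high cells. Ctgf UMIs from Wif1-high cells were 0.386% of 259 in control and 35.8% of 1171 in double-mutant glands, and those from clusters outside the named classes 51.7% and 14.5%.

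Timp3 had 82.7% of its 3443 control UMIs in luminal and other clusters outside the named classes, against 25.4% of 5047 in double-mutant glands, where Wif1-high cells held 29.0% and endothelial-like cells 15.6%. Cyr61 stayed mostly outside the named classes, at 80.0% of 6150 and 60.7% of 5136 UMIs. Tnc UMIs came mainly from other basal-like cells, 79.0% of 57 and 47.9% of 188. Sparc UMIs came from endothelial-like cells (37.1% of 1885 and 33.8% of 4665) and fibroblast-like cells (25.9% and 38.8%). Thbs1 UMIs from myeloid-like cells were 2.73% of 843 and 13.3% of 1978.

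**Figure D4:**
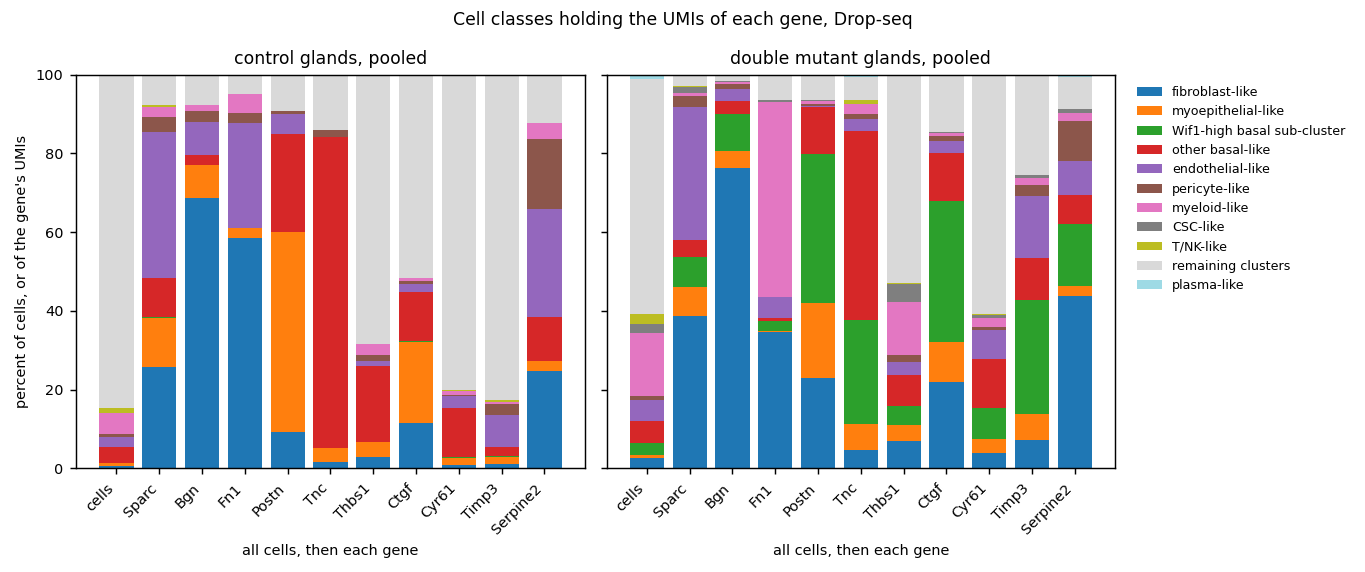
Share of all cells (first bar) and of each gene's UMIs (other bars) held by each cell class, pooled over control glands (left) and double-mutant glands (right), in percent. The myeloid-like share of Fn1 UMIs is 4.88% in control and 49.7% in double-mutant glands, and the Wif1-high share of Postn, Ctgf and Timp3 UMIs is near 0 in control glands and 38.0%, 35.8% and 29.0% in double-mutant glands.

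Within fibroblast-like cells no listed gene was called between genotypes. Only 2 control glands had 10 or more such cells, so glands with at least 5 (5 control and 14 double-mutant) were used. Of 483 genes tested 0% were called by edgeR, and of 9 of the listed genes 0 were called. At an unadjusted p under 0.05 were 73 of the 483 genes and 4 of the 9 (Ctgf, Bgn, Timp3 and Thbs1). DESeq2 was not run on this class. The log2 fold changes ran from 0.11 (SE 0.46) for Cyr61 to 1.57 (SE 0.62) for Ctgf. Sparc in glands with 10 cells or more was 7155 CPM in 2 control glands and 5225 ± 2903 CPM in 12 double-mutant glands. Over cells thinned to 500 UMIs, Bgn was seen in 33.9% of 56 control and 62.5% of 256 double-mutant fibroblast-like cells (exact 95% intervals 21.8 to 47.8% and 56.3 to 68.5%, counting error only), Timp3 in 14.3% and 30.5% and Ctgf in 7.14% and 21.9%. Sparc was seen in 78.6% of control and 73.4% of double-mutant fibroblast-like cells, and in 2.46% and 1.44% of T and NK cells, which should lack it.

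The CITE-seq fibroblast-like cells gave a different order for some genes, in 2 libraries per genotype and without a test. Ctgf was 285 and 802 CPM in control and 182 and 212 CPM in double-mutant libraries (24 and 26 UMIs in all), and Timp3 847 and 1567 CPM against 277 and 322 CPM. Cyr61 was 190 and 268 CPM in control and 645 and 797 CPM in double-mutant libraries. Sparc overlapped, at 8929 and 10340 against 7045 and 10210 CPM, as did Bgn, at 1662 and 3031 against 1920 and 1963 CPM. Postn was higher without overlap, at 178 and 237.5 against 325 and 575 CPM. With 2 libraries on each side such separation was common: of 3278 genes with at least 10 UMIs in these cells, 25.5% were higher and 16.9% lower in both double-mutant libraries, so nothing is read from it.

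In myeloid-like cells 9.6% of 1709 genes were called between genotypes, 5.68% higher and 3.92% lower. Of the listed genes only Fn1 and Thbs1 passed the filter on low counts, Fn1 through its double-mutant UMIs alone, so its call carries no weight and its values are a description. Fn1 was at 0 in 8 of 10 control glands and reached 16.6 CPM, on 2 UMIs in all, while in 14 double-mutant glands it ran from 0 through a median of 115 to 522 CPM, on 334 UMIs. Pooled over cells the ratio was 83.4 (exact 95% interval 22.9 to 691, counting error only). Thbs1 was 27.9 ± 24.4 CPM in control and 156 ± 137 CPM in double-mutant glands and was called (log2 fold change 1.73, SE 0.52). It too was sparse in control glands, with a UMI in 19 of 594 cells. Double-mutant glands may thus have carried Thbs1 through the filter, and its call is given no weight. In cells thinned to 500 UMIs, Fn1 was seen in 83 of 1140 double-mutant myeloid-like cells (7.28%, exact binomial 95% interval 5.84 to 8.95%, counting error only) and in 0 of 504 control cells, which allows a share of cells with a UMI at this depth of up to 0.595%. Before thinning the shares were 6.89% and 0.337%, at median depths of 570 and 750 UMIs, against 0.309% in double-mutant T and NK cells at a median of 423.5 UMIs. Double-mutant CITE-seq myeloid-like cells had Fn1 at 92.2 and 178 CPM and control ones at 0 and 26.9 CPM.

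At a finer clustering (Leiden resolution 1.4) the myeloid-like cells split into clusters that differed in Spp1, the matricellular protein osteopontin. A cluster of 465 cells led by Ccl6 and Spp1, 92.5% of them from double-mutant glands, held Fn1 at 779 CPM and Thbs1 at 369 CPM pooled over cells. The larger cluster of 2137 cells, led by Il1a and Ccl4 and 73.6% double-mutant, held 14.2 and 67.1 CPM. Over 11 glands with 10 or more cells, Fn1 in the Spp1-led cluster was 590 ± 511 CPM, from 0 to 1551 CPM.

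In basal-like cells 8.54% of 1570 genes were called, 6.94% higher and 1.59% lower, and 3 of 8 listed genes: Timp3 at 3.57 (SE 0.54), Bgn at 3.51 (SE 0.79) and Ctgf at 3.29 (SE 0.58). Bgn had 5 UMIs in 440 control basal-like cells, and a UMI in 2 of 9 control glands with at least 10 cells. It passed the filter on low counts through double-mutant glands alone, so its call carries no weight. Postn stood at 2.13, Tnc at 0.91, Sparc at 0.51, Thbs1 at 0.12 and Cyr61 at -0.26, none called. Without the Wif1-high sub-cluster, which control glands hardly had, 1 of 7 was called, Timp3 at 1.91 (edgeR adjusted p = 0.0324), Ctgf stood at 1.85 (edgeR adjusted p = 0.0735) and Bgn fell under the low-count filter, and without a further sub-cluster led by ribosomal pseudogenes, 49.2% of it from double-mutant P90 replicate 4, 0 of 6. Within 10 double-mutant glands with at least 5 cells of both kinds, Timp3 was 5341 ± 2582 CPM in Wif1-high and 934 ± 650.3 CPM in other basal-like cells, higher in 10 of 10 glands. Postn was 617 ± 232 against 129 ± 128 CPM, also in 10 of 10, and Ctgf 1467 ± 883 against 324 ± 189 CPM and Bgn 329 ± 134 against 36.1 ± 64.6 CPM, each in 9 of 10. Tnc went the other way in most, at 180 ± 205 against 270 ± 219 CPM, with Wif1-high cells higher in 3 of 10 glands. Sparc (917 against 338 CPM) and Serpine2 (271 against 85.7 CPM) were higher in Wif1-high cells in 9 of 10 glands, Cyr61 (1437 against 1003 CPM) in 8, Thbs1 (396 against 388 CPM) in 7 and Fn1 (49.3 against 26.3 CPM) in 5. In cells thinned to 500 UMIs, Timp3 was seen in 63.4% of 227 Wif1-high cells (exact 95% interval 56.8 to 69.7%), 19.5% of 399 other basal-like cells of double-mutant and 4.87% of 411 of control glands, and 3.28% of 122 control T and NK cells; unthinned, the shares were 68.7%, 30.2%, 11.8% and 4.41%.

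**Figure D5:**
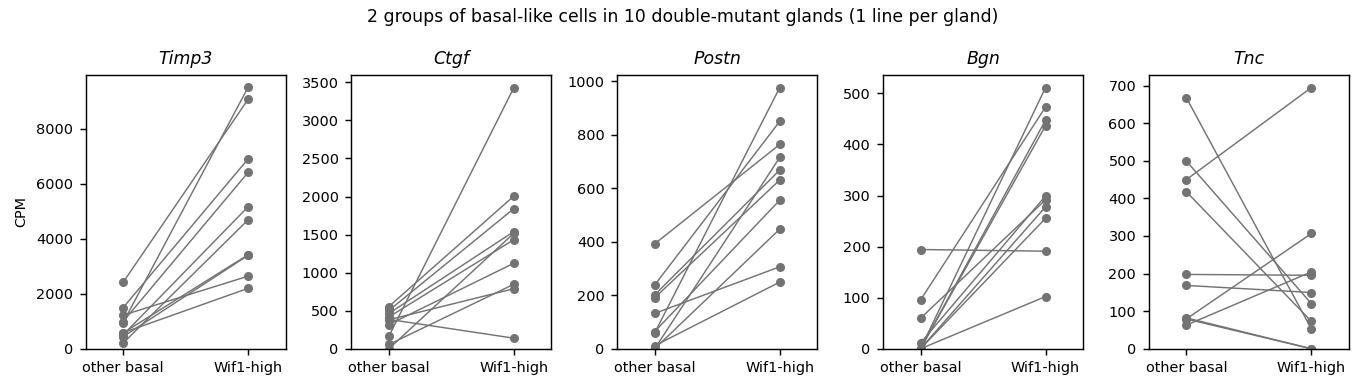
CPM (vertical axes) of 5 genes in other basal-like and Wif1-high basal cells of the same gland, 1 line for each of 10 double-mutant glands. Timp3 and Postn rise from left to right in all 10 lines, Ctgf and Bgn in 9, and Tnc in 3.

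The sub-clusters were made from the same cells, so these contrasts are descriptive. Timp3 lies within Syn3, a synapsin gene on the opposite strand, and shares 1733 of its 8144 exonic bases with it. Syn3 was not held out of the clustering and was among the leading genes of the Wif1-high sub-cluster. CITE-seq cells were assigned to basal-like or myoepithelial-like cells only, not to sub-clusters. Whether they include Wif1-high cells was therefore not examined. Their basal-like cells were 7.44 and 14.7% of control but 4.23 and 4.55% of double-mutant libraries.

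In myoepithelial-like cells, with 4 glands of each genotype, 2.3% of 392 genes were called by edgeR, 0.765% higher and 1.53% lower. Of 6 listed genes 0 were called by edgeR and 0 by DESeq2. At an unadjusted p under 0.05 were 33 of all genes and 1 listed gene. That gene was Timp3, at 374 to 695 CPM in 4 control and 2320 to 4888 CPM in 4 double-mutant glands, without overlap, as were 2.9% of 2204 genes with at least 10 UMIs there in that direction (log2 fold change 2.09, SE 0.61, edgeR adjusted p = 0.0697); without the pair of glands against their sex labels the call was made at 2.13. In endothelial-like cells, 0.102% of 976 genes were called and 0 of 3 listed genes by edgeR, with 0 at an unadjusted p under 0.05 (93 of all genes) and 0 by DESeq2. Sparc was at 0.14 (SE 0.35), Cyr61 at 0.25 (SE 0.30) and Timp3 at 0.33 (SE 0.25) there.

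Sex was the second comparison that the list did not use. Among 10488 genes 38 (0.362%) were called between male and female glands by edgeR, 0.334% higher and 0.0286% lower in males, and 66 by DESeq2. Of the 10 genes 0 were called by either. At an unadjusted p under 0.05 were 840 of the 10488 genes and 2 of the 10: Cyr61, higher in males (log2 fold change 0.46, SE 0.17, edgeR adjusted p = 0.501), and Tnc, lower in males (-1.10, SE 0.51, edgeR adjusted p = 0.603). The other 8 ran from -0.86 for Ctgf to 0.63 for Bgn. Without the pair of glands against their sex labels 66 genes were called and again 0 of the 10, with Cyr61 at 0.44 (edgeR adjusted p = 0.296) and Tnc at -1.24 (edgeR adjusted p = 0.375). By label, Tnc was 3.21 ± 2.88 CPM in 6 female and 0.586 ± 0.780 CPM in 6 male control glands, and 12.1 ± 8.97 and 8.24 ± 8.52 CPM in 8 female and 6 male double-mutant glands, or 10.97 ± 9.02 and 7.91 ± 9.48 CPM in 7 and 5 without the pair. The genotype-by-sex term called 0 genes (0%) by edgeR, with 398 genes at an unadjusted p under 0.05 and 2 by DESeq2. Timp3 had the smallest p of the 10 and was the single one at an unadjusted p under 0.05, with a term of -2.46 (SE 0.67, edgeR adjusted p = 0.813). By label, its level was 60.8 ± 34.7 CPM in female and 148.5 ± 84.4 CPM in male control glands, and 347 ± 326 CPM in female and 173 ± 109 CPM in male double-mutant glands, where the pair contributes a gland on each side; without it the latter were 290.3 ± 306 and 172 ± 122 CPM, which overlapped (19.1 to 764 and 65.9 to 351 CPM). The term was -2.49 without the pair of glands against their sex labels.

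Other matrix genes gave context. Of 47 further matricellular, protease and matrix genes, 28 could be tested in the Drop-seq glands, where 21 were called higher and 0 lower, beside 14.4% and 7.56% of all genes (median log2 fold change 1.84, against 0.02 for all genes), led by Spp1 (5.01) and Tgfbi (3.10). In the CITE-seq glands 22 of 37 rose and 0 fell, beside 9.24% and 4.47% of all genes (median 1.41), led by Mmp2 (2.998, edgeR adjusted p = 0.00173), a gelatinase that Timp3 can inhibit, and Spp1 (3.72, edgeR adjusted p = 0.00417). Of the integrins, syndecans and other receptors, 10 of 21 were called higher and Itgb6 (-1.02) lower in Drop-seq glands, and 5 of 19 rose in CITE-seq glands. Sdc1, a heparan sulfate co-receptor, stood at 1.94 and 2.28 and Lrp1, an endocytic receptor that clears protease-inhibitor complexes, at 2.27 and 2.33 in the 2 assays.

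Of TGF-β and YAP pathway genes, 12 of 20 were called higher in Drop-seq glands, led by the latent TGF-β binding proteins Ltbp4 (1.32) and Ltbp1 (2.15), and Tgfb2 (-1.04) lower. In CITE-seq glands 5 of 16 rose, led by Axl (1.49) and Smad7 (1.63). Genes that tissue dissociation is known to induce, which include immediate-early genes like Cyr61, were mixed in the Drop-seq glands, with 3 of 14 called higher (Ier3 at 0.90 and Egr1 at 0.52 among them) and 2 lower (Btg2 at -0.79 and Atf3 at -0.71), and 2 of 14 rose in CITE-seq glands (Hspa1b at 1.47 and Jund at 1.05). Their summed level ran from 4641 through 6741 to 10880 CPM in control and from 4701 through 9956 to 18650 CPM in double-mutant Drop-seq glands. Over all genes 14.4% were called higher in Drop-seq and 9.24% in CITE-seq glands. Their part in the Cyr61 values was not tested. None of these 4 lists held a gene called by sex.

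The bulk libraries allow the genes to be compared with each other per transcript length, in transcripts per 1000000 (TPM), with 1 gland per genotype of different age and no replicate check. Sparc was highest in the control gland at 14.5 TPM, followed by Bgn at 4.72, Timp3 at 2.51, Cyr61 at 2.24, Postn at 1.83, Ctgf at 1.64, Thbs1 at 0.904, Fn1 at 0.659, Tnc at 0.222 and Serpine2 at 0.157 TPM. In the double-mutant gland the order began with Sparc at 11.3 and Bgn at 7.30, then Ctgf at 3.25 and Timp3 at 2.94, and Serpine2 was at 0.421 TPM. The Sparc ratio of double-mutant to control was 0.778 (95% counting interval 0.726 to 0.833) where the median log2 ratio of 14552 genes was -0.29, and 0.95 with TMM-scaled counts, which take out that shift.

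Fn1 was 2.74 times higher (2.40 to 3.14), Serpine2 2.69 times (1.94 to 3.79) and Thbs1 2.02 times (1.71 to 2.39), so 3 of 10 passed a 2-fold limit that 6.29% of all genes passed. Ctgf stood at 1.97 (1.65 to 2.37), just under it, and passed with TMM-scaled counts (2.41), which also moved Postn from 0.949 to 1.16. Bgn was at 1.55 (1.43 to 1.67) and Timp3 at 1.17 (1.07 to 1.29), the latter counted without a stated strand setting over bases shared with Syn3. The intervals of Postn (0.847 to 1.06), Cyr61 (0.892 to 1.35) and Tnc (0.883 to 1.72) included no difference. Of 9 fibroblast markers 5 were higher in the double-mutant gland (median ratio 1.04), of 9 myoepithelial markers 1 (0.425), of 10 endothelial markers 0 (0.853), and of 11 myeloid markers 11 (1.75).

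Patterns over cell classes tied some of the 10 to each other. Among 12257 genes with at least 100 UMIs, Pearson's r of log2(mean CPM + 1) over 11 classes, which share their libraries, ranked Rcn3 (0.984), Fstl1 (0.983) and Serpine2 (0.968) closest to Bgn, and Bgn (0.968) closest to Serpine2. Postn and Cyr61 (both 0.959) were closest to Ctgf. Col4a1 (0.975), Lamc1 (0.971) and Wwtr1 (0.967), which encode basement membrane chains and the YAP paralog TAZ, were closest to Sparc. Syn3 (0.991) was closest to Timp3, its overlapping neighbor. Sult5a1 (0.972) was closest to Postn, Ptov1 (0.951) to Thbs1, Dis3 (0.934) to Tnc and Nav1 (0.904) to Fn1, the last being the lowest of the 10 leading values.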

How the data were processed

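The authors deposited UMI counts per gene and cell for each Drop-seq and CITE-seq library, made with Drop-seq tools and STAR against mm10 with GENCODE vM7 plus Cre and EYFP, with barcodes chosen by the knee method and human spike-in cells removed from CITE-seq, and bulk read counts per gene from featureCounts 1.6.0 with no strand option given. Cells with at least 100 genes and under 15% mitochondrial UMIs (CITE-seq also under 2500 genes) were kept. Counts were summed per gland and fitted with edgeR 4.0.16 (quasi-likelihood, TMM, filterByExpr, Benjamini-Hochberg over all genes; a call is an adjusted p under 0.05) with genotype, sex and stage as terms, and with genotype alone in CITE-seq. DESeq2 1.42.0, other scalings, filters, cell minimums, a replicate block and left-out libraries were alternatives.

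Cells were clustered (2000 variable genes, 30 components, 20 neighbors, Leiden resolution 1.0, leidenalg 0.10.2) with 64 genes held out, among them the listed genes, and CITE-seq cells took the majority cluster of their 20 nearest Drop-seq cells. Doublets were weighed by leaving out cells with at least 2 markers of another class. Fits within a class used glands with at least 10 cells; the planned fibroblast fit had too few control glands, so 5 cells were taken instead. Bulk counts were scaled to TPM with the deposited lengths. Antibody tag files were not used, as no antibody in them was against a listed gene. Planned protein comparisons were not made.

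The members, gene lists and tests were chosen with earlier results of these data known. The 10 genes are named, or given by range, in the comparisons that measured them; of the other lists, up to 2 genes per direction with the smallest adjusted p are named, and for likeness the closest genes by Pearson's r. Counts were also simulated from the mean levels, spread and depths of the real libraries. The Drop-seq comparison (10190 genes, 188 of them changed) recovered 66% of genes changed 2-fold and 97.9% changed 4-fold, with 5 false calls. The CITE-seq comparison (9214 genes, 182 of them changed) recovered 8.6% and 71.9%, with 18 false calls. The labels number the glands of a group separately.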

Additional observations from a re-analysis of the deposited data

Results flagged for a closer look

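In groups of 6 or 7 glands, a gap test (Dixon, 95% level) set the extreme gland apart in 6 of 40 sets of values, where chance alone gives about 1 in 20. Double-mutant P40 replicate 2 was far above the other 6 glands of its group for Ctgf (257.1 CPM, next 76.9), Postn (100.1 CPM, next 43.1) and Timp3 (764.3 CPM, next 351). In that gland 10.8% of cells were Wif1-high basal cells, the class with the highest Ctgf and Timp3 levels, and ribosomal genes took 7.38% of its UMIs.

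Fn1 stood apart in double-mutant P40 replicate 5 (92.26 CPM, next 20.7) and in double-mutant P90 replicate 5 (271.7 CPM, next 82.5), the second being one of the pair against their sex labels. Myeloid-like cells were 26.1% and 32.1% of these glands, and the Spp1-led myeloid cluster 7.71% and 8.52%. Tnc stood apart in control P40 replicate 1 (8.174 CPM, next 2.10), where 6.32% of cells were other basal-like. The part of cell make-up in these values was not tested.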

How the results depend on the processing

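The count of listed genes called between genotypes in Drop-seq glands stayed at 8 or more under every alternative run. The highest class of each gene was sought among fibroblast-, basal-, myoepithelial-, endothelial- and myeloid-like cells. It was the same for 10 of 10 genes without likely doublets, but for 7 of 10 when cells were called by markers alone. At Leiden resolutions 0.6 and 1.4 no cluster was named myoepithelial, so that class was left out there. Among the remaining classes the highest was the same for 10 of 10 genes. At P40 the count of listed genes called was 2 (beside 1.36% of all genes tested), and 9 with no filter on low counts (4.49%), 4 by DESeq2 (6.4%) and 5 with the replicate block (6.82%). At P90 it was 5 (8.07%), and 9 (6.19%), 8 (13.2%) and 8 (13.7%) under the same settings, and 3 without the pair of glands against their sex labels (3.31%). With no filter, 2 were called for stage in double-mutant glands instead of 0 (Sparc and Fn1, beside 2.15% of all genes). For stage in control glands 3 were called instead of 1 (Sparc, Ctgf and Postn, beside 5.21%), and Cyr61 was then not called. For the genotype-by-sex term 1 was called instead of 0 (Timp3, adjusted p = 1.33e-05 by edgeR, beside 0.195%). The replicate block left 0 for stage in control glands, beside 4.14% of all genes. In CITE-seq glands the count was 6 (beside 13.7% of all genes tested), 4 by DESeq2 (6.4%) and 2 of 5 without fibroblast-like cells (12.2%). It was lower than 6 with each library left out, where the lone library of an arm is assumed to vary like the other arm. In basal-like cells the count of 3 became 6 with the replicate block (6.92% of all genes) and 1 without Wif1-high cells (1.86%). It became 0 when the ribosomal pseudogene sub-cluster was left out too (1.03%). In myoepithelial-like cells 0 became 1 without the pair of glands (4.94%). In myeloid-like cells 2 became 1 of 1 tested with at least 5 cells per gland (12.1%) and 1 of 3 with at least 20 (4.76%). The causes were not tested, except that fewer genes pass the filter in smaller sets.

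Replicate numbers did not pair the glands: over 37 same-numbered pairs of different groups the correlation of deviations had a median of 0.0404 (-0.303 to 0.518), and 12 were over 0.1. The block fits of Drop-seq glands also tested more genes, 13536 in place of 10488 or 11420. No block could be fitted for myoepithelial-like cells.

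Some log2 fold changes turned sign; of them, Cyr61 between Drop-seq genotypes alone was a called value. With library totals, Cyr61 was 0.20 in Drop-seq and 0.64 in CITE-seq glands and Timp3 0.48 in CITE-seq, Fn1 was -0.25 for sex and Ctgf 0.10 for genotype by sex. With each library left out, CITE-seq Cyr61 ran from -0.35 (without control replicate 2) to 0.10 (without double-mutant replicate 1), and was 0.087 without control replicate 1. For stage in double-mutant glands, Ctgf was -0.18 in batches B11 to B13, Bgn -0.084 without the pair of glands, and Timp3 -0.31 with the block, -0.12 without the pair and -0.52 in those batches. For sex, Fn1 was -0.12 by DESeq2 and -0.074 with the block. For genotype by sex with the block, Sparc was -0.028, Serpine2 -0.77 and Thbs1 -0.016. Within classes, basal-like Sparc was -0.13 without Wif1-high cells and -0.42 without both sub-clusters, basal-like Thbs1 -0.15 with at least 20 cells, myoepithelial-like Postn 0.023 with at least 5, and endothelial-like Sparc -0.0063 with at least 20.

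Genes called over the whole table, from lowest to highest over the alternatives, were 1571 to 5583 (main 2308) for genotype in Drop-seq, 130 to 1313 (155) at P40, 368 to 1854 (922) at P90, 0 to 627 (0) and 537 to 1523 (575) for stage in double-mutant and control glands, 0 to 189 (1) for genotype by stage, 23 to 269 (38) for sex, 0 to 57 (0) for genotype by sex, 380 to 3107 (1379) in CITE-seq, and 9 to 231 (134), 0 to 19 (9), 1 to 21 (1) and 96 to 242 (164) in basal-like, myoepithelial-like, endothelial-like and myeloid-like cells. With library totals the split of higher and lower calls was 5532 and 51 in Drop-seq (1515 and 793 with TMM) and 2998 and 109 in CITE-seq (929 and 450). Depth limits the low genes most: Fn1 in all control Drop-seq glands rests on 41 UMIs and Tnc on 57.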

Other observations

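Clusters outside the named classes held much of the control signal of Timp3, Cyr61 and Thbs1. A cluster led by Ren1 and Klk1b16 counted 928 control and 152 double-mutant cells and held 55.0% of control Timp3 UMIs against 5.11% in double-mutant glands, at 746 and 524 CPM. It also held 24.8% of control and 5.76% of double-mutant Cyr61 UMIs, at 600.5 and 600.9 CPM.

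A cluster led by Ltf, Esp4 and Clu, 76.9% of it from double-mutant glands, held Cyr61 at 1539 CPM in control and 818 CPM in double-mutant cells, and Thbs1 at 171 and 412 CPM, which made 21.4% of all double-mutant Thbs1 UMIs. A cluster led by the transcription factors Ascl3 and Foxi1 held Thbs1 at 213.5 and 323 CPM and 20.6% of control Thbs1 UMIs. These are pooled values per cluster, without a test.

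Syn3, which overlaps Timp3 on the opposite strand, had its highest level where Timp3 did, at 659 CPM in Wif1-high basal cells (199 Syn3 and 1466 Timp3 UMIs), then 277 CPM in myoepithelial-like and 182 CPM in pericyte-like cells.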
